A study of Mus musculus with 4 samples.

Results

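The secreted Wnt antagonists are extracellular proteins that limit Wnt signalling before a ligand engages its receptors. Here they were the 10 mouse genes Sfrp1, Sfrp2, Sfrp4, Frzb, Wif1, Dkk1, Dkk2, Dkk3, Sostdc1 and Notum, chosen by name, out of 55487 genes in the deposited count table. All 10 had counts in all 4 libraries, and all 10 were among the 17128 genes that passed the filter on low counts. The study deleted Ptip, which encodes a subunit of the MLL3 and MLL4 histone H3 lysine 4 methyltransferase complexes and carries the official symbol Paxip1, and its title places the gene in tooth development and the Wnt pathway. The knockout group held 2 libraries of genotype Ptipf/f;Sp7-cre and the control group held 2 libraries of genotype Ptipf/f, all from C57 mice at postnatal day 30. Both groups carry the floxed alleles, and no control carries Cre, so that loss of Ptip and presence of Cre cannot be told apart. The Cre is driven by Sp7, the gene of a transcription factor of osteoblast-lineage cells and odontoblasts, so cells that never expressed Sp7 keep the gene. The RNA came from CD45-Ter119-Tie2- cells sorted from lower incisors, labelled as dental progenitor cells of the dental pulp. Whether the 2 libraries of a group came from separate animals is not in the labels, so the p-values below measure only the spread between these samples, which may be technical.

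Wnt ligands signal by bringing together a Frizzled receptor and the co-receptor LRP5 or LRP6, which stabilises beta-catenin and lets it act with TCF/LEF factors at target genes. The antagonists interrupt this step in different ways. SFRP proteins, FRZB and WIF1 bind the ligands themselves, DKK1, DKK2 and SOSTDC1 bind the LRP co-receptors, and NOTUM is a carboxylesterase that removes the lipid that a Wnt ligand needs for binding to Frizzled. Several of them, Dkk1 and Notum among them, are themselves targets of Wnt signalling in other tissues. In the continuously growing mouse incisor, Wnt signals and their inhibitors act in the exchange between the dental epithelium and the mesenchyme, and loss of Sostdc1 in mice gives extra teeth.

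Promoter sequence was examined for 5 members that had an entry in the RefSeq promoter table of GRCm38.p6, namely Dkk1, Dkk2, Sfrp2, Frzb and Wif1. The window was the 250 bases before the RefSeq start site. It was searched on both strands for CTTTGAA and CTTTGAT, which are forms of the TCF/LEF recognition motif, and for the TATA box TATAAA. Of all 32851 windows in the table, 7.48% held a TCF/LEF form and 12.4% held the TATA box. The sequences of Dkk1 and Dkk2 are shown because these genes separated the 2 knockout libraries more than any other member, and Sfrp2 is shown as one of the members that held most of the family's RNA. Capitals mark the motif matches, and each sequence reads 5′ to 3′ on the gene's strand.
Dkk1, TCF/LEF match, chr19:30549595-30549624, minus strand: tcctcccaaagCTTTGAAatcccatcccgg
Dkk1, TATA match, chr19:30549533-30549562, minus strand: tgggagcctgagTATAAAggcagccagagg
Dkk2, chr3:132085042-132085291, plus strand: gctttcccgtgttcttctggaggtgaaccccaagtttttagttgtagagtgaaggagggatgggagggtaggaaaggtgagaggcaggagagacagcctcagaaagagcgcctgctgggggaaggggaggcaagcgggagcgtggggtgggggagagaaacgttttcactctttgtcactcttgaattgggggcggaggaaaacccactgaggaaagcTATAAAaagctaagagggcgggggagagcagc
Sfrp2, chr3:83766071-83766320, plus strand: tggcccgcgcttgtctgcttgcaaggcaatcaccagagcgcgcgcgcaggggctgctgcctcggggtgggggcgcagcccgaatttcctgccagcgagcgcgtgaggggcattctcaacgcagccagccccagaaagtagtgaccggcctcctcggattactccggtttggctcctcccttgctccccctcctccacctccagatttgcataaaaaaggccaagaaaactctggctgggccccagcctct
Dkk1 was the only member of the 5 with a TCF/LEF form, CTTTGAA on its own strand. The TATA box stood in the windows of Dkk1 and Dkk2 on the gene's strand and in the window of Wif1 on the opposite strand. The windows of Sfrp2 and Frzb held none of these letters. Both Dkk1 matches lie inside the gene as GENCODE draws it, which starts further upstream than the RefSeq start site. Only 30 bases around each are shown, since 169 of the 250 bases lie within the GENCODE gene, and likewise 229 bases for Frzb and 44 for Wif1. The GC content was 55.6% for Dkk2, 60.8% for Dkk1, 62.8% for Wif1, 63.6% for Sfrp2 and 64.4% for Frzb, against a median of 52.4% over all windows. A match describes the letters only, and no binding was measured.

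The libraries held 19142757 and 17770831 counts in the knockouts, against 15154246 and 15394782 counts in the controls. Levels below are counts scaled to a common library size (CPM), with edgeR's TMM factors. The deleted gene Paxip1 had 5.68 and 3.97 CPM in the knockouts, against 28.2 and 44.2 CPM in the controls, which is the direction the labels give. By edgeR's quasi-likelihood test with Benjamini-Hochberg adjustment, 0 of the 17128 tested genes passed an adjusted p of 0.05 in either direction, Paxip1 included (log2 fold change -2.91, SE 0.48, adjusted p = 0.150). At an unadjusted p under 0.05, 1254 genes were higher and 1694 lower. DESeq2's Wald test called 472 genes higher and 989 lower at the same adjusted threshold. Markers of cell types other than pulp were plentiful. The 12 dental epithelium markers summed to 34870 and 42030 CPM in the knockouts, against 63500 and 22770 CPM in the controls, most of it Ambn, which encodes the enamel protein ameloblastin. Among those 12, Sox2 had no count in any library. The 8 pulp mesenchyme markers summed to 3849 and 3608 CPM in the knockouts, against 1321 and 1712 CPM in the controls. Msx1 alone had 2907 and 2521 CPM of this in the knockouts, against 723 and 844 CPM in the controls. RNA of other tissues was thus present beside that of pulp. Control 1 stood apart with leukocyte markers of 4729 CPM, while knockouts 1 and 2 had 725 and 224 CPM and control 2 had 1357 CPM. In bulk RNA, fewer cells of a type and less RNA per cell cannot be told apart.

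The 10 antagonists together took 3305 and 4077 CPM in the knockouts, against 2097 and 4616 CPM in the controls. The groups overlapped, since control 1 was the lowest and control 2 the highest of the 4 libraries. Per kilobase of exon, Wif1 and Sfrp2 were the most abundant members in every library, and together they made up 79.9% and 79.0% of the family's summed level in the knockouts, against 82.3% and 73.1% in the controls. With Dkk3 the share was 86.5% and 88.7% in the knockouts, against 89.3% and 81.6% in the controls. The family's RNA was therefore mainly that of 3 genes whose levels overlapped between the genotypes.

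On the same scale of CPM per kilobase of exon, the order of mean levels in the knockouts was Wif1 at 613 ± 93.1, Sfrp2 at 550 ± 39.9, Dkk3 at 121 ± 46.0, Frzb at 59.6 ± 0.64, Sfrp4 at 58.0 ± 20.9, Sostdc1 at 27.4 ± 26.1, Sfrp1 at 17.9 ± 17.2, Dkk1 at 7.13 ± 7.38, Dkk2 at 5.33 ± 5.42 and Notum at 5.22 ± 1.43 (SD, n = 2). Of neighbours in that order, only Sfrp2 and Dkk3, and Dkk3 and Frzb, did not overlap. In the controls the order was Sfrp2 at 526 ± 294, Wif1 at 467 ± 120, Sfrp4 at 128 ± 130, Dkk3 at 105 ± 63.0, Sostdc1 at 44.0 ± 15.1, Frzb at 15.4 ± 7.97, Dkk2 at 11.5 ± 7.73, Sfrp1 at 7.15 ± 4.82, Dkk1 at 1.26 ± 0.12 and Notum at 0.57 ± 0.24 (SD, n = 2). The neighbours that did not overlap there were Wif1 and Sfrp4, Dkk3 and Sostdc1, Sostdc1 and Frzb, Sfrp1 and Dkk1, and Dkk1 and Notum. Frzb stood at rank 4 in the knockouts and at rank 6 in the controls, while Notum was last in both.

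**Figure D1:**
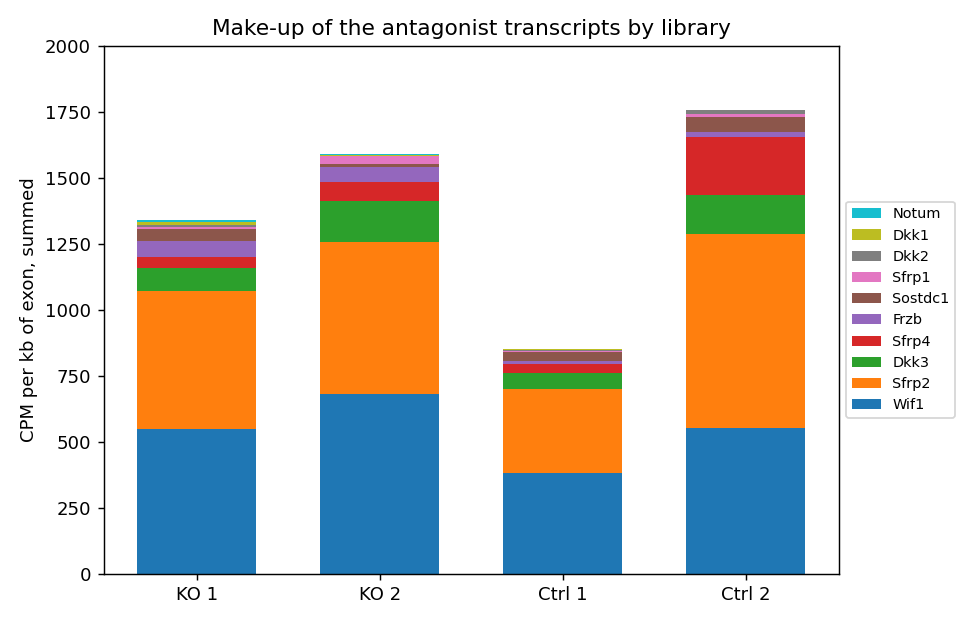
Summed antagonist level (CPM per kilobase of exon, vertical axis) in each of the 4 libraries, knockouts left and controls right, with each member as a coloured block. The bars reach 1338 and 1592 in the knockouts, against 850 and 1759 in the controls, and Wif1, Sfrp2 and Dkk3 together fill 86.5% and 88.7% of the knockout bars, against 89.3% and 81.6% of the control bars.

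For 3 of the 10 members, Frzb, Notum and Dkk1, both knockout libraries lay above both controls, and for 0 of the 10 both lay below. Over all tested genes, 25.8% were separated in this way with the knockouts higher and 24.8% with the knockouts lower, so the higher share was near its background and the lower share was below it. At an unadjusted p under 0.05, the same 3 members were higher and none lower, against 7.32% of all tested genes higher and 9.89% lower. None of the 10 passed edgeR's adjusted threshold, as no gene did (0% of tested genes in each direction). With DESeq2 size factors or upper-quartile factors in edgeR, and with limma-voom, 0 genes were likewise called in each direction. DESeq2's Wald test called Frzb, Notum and Dkk1 higher and no member lower, where it called 2.72% of all genes higher and 5.69% lower. edgeR without the filter on low counts called the same 3 higher and none lower, where 1.43% of all genes were called higher and 3.20% lower. The prior degrees of freedom of that fit were infinite, against 4.85 in the main fit. Its p-values thus took the variance from the trend over genes and not from each gene's own replicates. This limit holds for every unfiltered value given below. With 1 CPM required in all 4 libraries, none of the 9 remaining members was called, against 0.423% of genes called higher and 1.06% lower. No member was called with the replicate number as a block (0.344% of genes higher, 1.08% lower) or without knockout 1 (0.321% higher, 1.34% lower). The log2 fold change was positive for 7 members and negative for 3, with a median of 0.30 over the members, against 0.0024 over all tested genes. That median depended on single libraries, being -0.10 without control 1, 0.86 without control 2, 0.55 without knockout 1 and 0.022 without knockout 2.

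**Figure D2:**
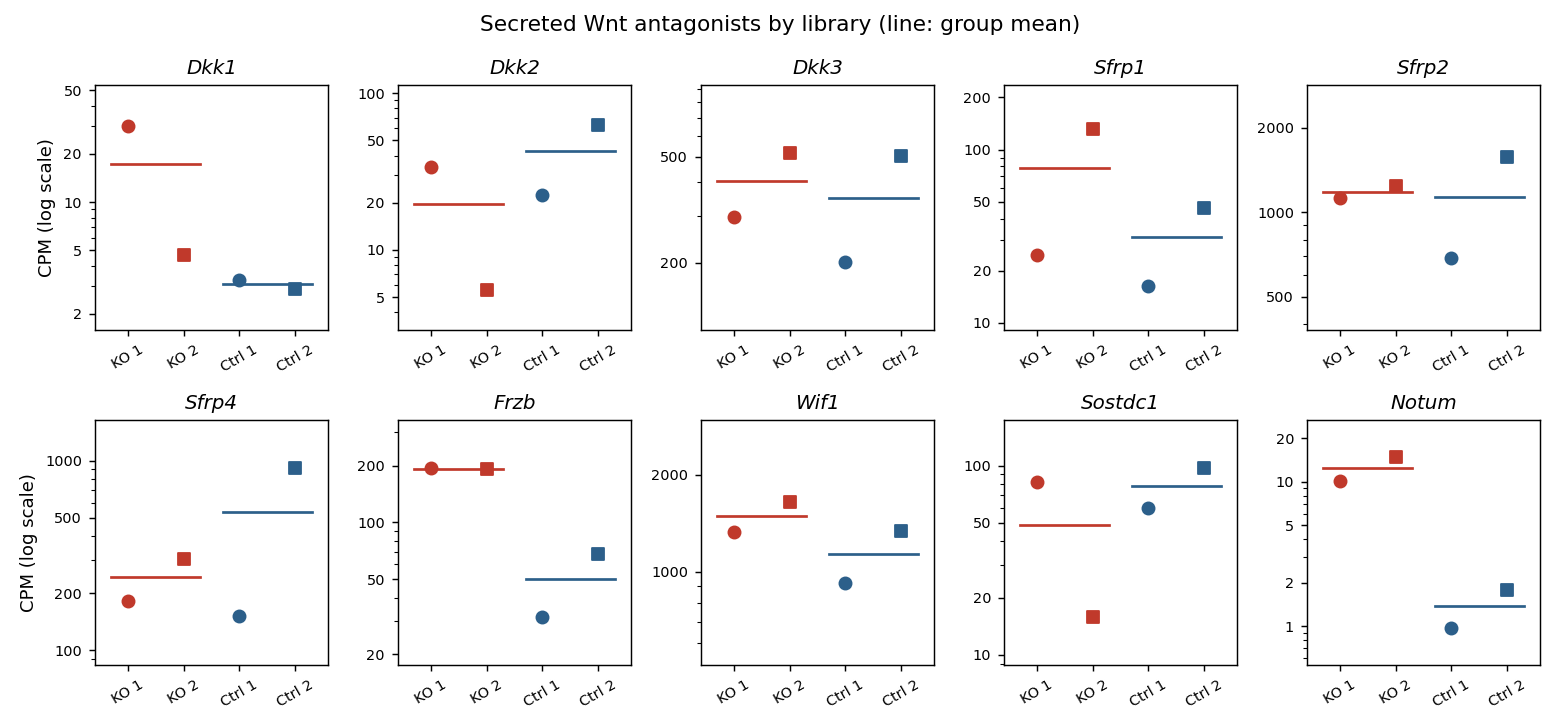
Level of each antagonist in CPM (vertical axes, log scale) in the 2 knockout and 2 control libraries, 1 point per library, with a line at the group mean. Frzb, Notum and Dkk1 are the members whose 2 knockout points both lie above both control points, and for Dkk1 the knockout points themselves lie 6.46-fold apart.

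Frzb (secreted frizzled-related protein 3, ENSMUSG00000027004, chr2:80411970-80447625, minus strand, GRCm38) binds Wnt ligands and is known from cartilage and joint tissue. It had 194 and 192 CPM in the knockouts, against 31.7 and 68.2 CPM in the controls. Both knockouts were nearly equal and stood well above both controls, which differed from each other by 2.15-fold. The mean was 193 ± 2.07 CPM in the knockouts and 49.9 ± 25.8 CPM in the controls (SD, n = 2 each), a 3.86-fold difference. On the log2 scale this was 1.95 (SE 0.44), with adjusted p = 0.163 by edgeR's quasi-likelihood test with Benjamini-Hochberg adjustment. Its p-value ranked 346 among the 17128 tested genes. With DESeq2 the adjusted p was 0.00174, and with limma-voom it was 0.087. Leaving out each library in turn gave log2 fold changes between 1.46 and 2.56. Within the family, the share of Frzb was 4.49% and 3.72% in the knockouts, against 1.15% and 1.20% in the controls, with little difference within a group. Of 6 chondrocyte markers, 4 also lay higher in both knockouts and 1 lower, beside 25.8% and 24.8% of all tested genes. The list summed to 807 and 1110 CPM in the knockouts, against 506 and 375 CPM in the controls. Most of that was Sox9, with 569 and 881 CPM in the knockouts, against 447 and 265 CPM in the controls. The 1 lower was the cartilage collagen gene Col2a1, with 13.9 and 14.8 CPM in the knockouts, against 17.9 and 36.3 CPM in the controls. The part of chondrocytes in the Frzb difference was not tested.

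Sfrp2 (ENSMUSG00000027996, chr3:83766321-83774316, plus strand), a Wnt-binding protein abundant in many mesenchymal cells, had 1124 and 1245 CPM in the knockouts, against 685 and 1580 CPM in the controls. Both knockouts lay between the controls. The mean was 1184 ± 85.9 CPM in the knockouts and 1133 ± 633 CPM in the controls (SD, n = 2 each). The log2 difference of 0.06 (SE 0.45, adjusted p = 0.967 in edgeR's test) turned to -0.45 without control 1 and to -0.014 without knockout 2. The gene shares 347 exon bases with the antisense gene Gm26771, and reads from overlapping strands cannot be told apart without strand information. On either strand, 12% of its 50-base words occur in transcripts of other genes, such antisense overlap included. Gm26771 itself had 60 and 20 counts in the knockouts, against 3 and 14 counts in the controls.

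Sfrp1 (ENSMUSG00000031548, chr8:23411502-23449632, plus strand), a relative of Sfrp2 that binds Wnt ligands in the same way, had 24.8 and 131 CPM in the knockouts, against 16.4 and 46.2 CPM in the controls. Knockout 2 was the high library, and knockout 1 fell between the controls. The mean was 78.0 ± 75.3 CPM in the knockouts and 31.3 ± 21.1 CPM in the controls (SD, n = 2 each), and the log2 fold change was 1.32 (SE 0.82, adjusted p = 0.474, edgeR). It was -0.34 without knockout 2, so that 1 library set its direction. The 6 pericyte and smooth muscle markers summed to 445 and 1183 CPM in the knockouts, against 750 and 1274 CPM in the controls, lowest in knockout 1, whereas Sfrp1 was lowest in control 1. Between the knockouts, all 6 were higher in knockout 2, as Sfrp1 was. The same held for all 6 osteoblast markers and 5 of the 6 odontoblast markers, while all 8 leukocyte markers were higher in knockout 1. The part of any of these cells was not tested.

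Sfrp4 (ENSMUSG00000021319, chr13:19623104-19632994, plus strand), whose loss in humans causes Pyle disease, a disorder of cortical bone, had 181 and 304 CPM in the knockouts, against 150 and 917 CPM in the controls. Control 2 was far above the other 3 libraries, and control 1 was the lowest. The mean was 242 ± 87.3 CPM in the knockouts and 534 ± 542 CPM in the controls (SD, n = 2 each), with a log2 fold change of -1.14 (SE 0.77, adjusted p = 0.515, edgeR). Without control 2 the log2 fold change was 0.65. Among the 8 markers of periodontal ligament and dental follicle, the matrix genes Postn and Aspn were likewise highest in control 2, at 1405 and 502 CPM. Postn had 224 and 877 CPM in the knockouts and 342 CPM in control 1. Aspn had 88.9 and 193 CPM in the knockouts and 74.5 CPM in control 1. Scx, Tnmd and Tnc were highest in control 2 as well, whereas Fmod, Mkx and Pthlh were highest in a knockout. Fmod alone had 2217 and 2348 CPM in the knockouts, against 579.5 and 631.5 CPM in the controls. The whole list summed to 2826 and 3677 CPM in the knockouts, against 1373 and 3157 CPM in the controls. It held 2 genes higher and 3 lower without overlap, beside 25.8% and 24.8% of all tested genes. The part of this list in the Sfrp4 level was not tested.

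Wif1 (ENSMUSG00000020218, chr10:121033960-121100650, plus strand), which binds Wnt ligands through its WIF domain, had 1329 and 1648 CPM in the knockouts, against 925 and 1339 CPM in the controls. Knockout 1 and control 2 were nearly level, so the groups touched, with control 1 lowest and knockout 2 highest. The mean was 1489 ± 226 CPM in the knockouts and 1132 ± 292 CPM in the controls (SD, n = 2 each), and the log2 fold change was 0.39 (SE 0.36, adjusted p = 0.639, edgeR). It kept its sign under every alternative run and lay between 0.12 and 0.64 with each library left out. Of all members, it had the smallest SE, at a count of 13336 or more in each library.

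The 3 LRP-binding members each differed between the 2 knockouts by 5.12-fold or more. Dkk1 (ENSMUSG00000024868, chr19:30545863-30549665, minus strand), the prototype inhibitor that removes LRP5 and LRP6 from signalling, had 29.98 and 4.64 CPM in the knockouts, against 3.26 and 2.85 CPM in the controls. Knockout 1 was far above the other 3 libraries, while knockout 2 was only a little above the controls. The mean was 17.3 ± 17.9 CPM in the knockouts and 3.06 ± 0.29 CPM in the controls (SD, n = 2 each), a 5.65-fold difference. In edgeR the log2 fold change was 2.50 (SE 0.88, adjusted p = 0.227), and it was 0.60 without knockout 1. DESeq2 gave an adjusted p of 0.029, and limma-voom gave 0.369. The Dkk1 difference therefore rested mostly on 1 library with 586 counts, beside 83 in knockout 2 and 47 and 45 in the controls.

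Dkk2 (ENSMUSG00000028031, chr3:132085292-132180304, plus strand), which also binds the LRP co-receptors, had 33.9 and 5.54 CPM in the knockouts, against 22.3 and 62.8 CPM in the controls. The knockouts straddled control 1, and knockout 2 was the lowest library. The mean was 19.7 ± 20.1 CPM in the knockouts and 42.5 ± 28.7 CPM in the controls (SD, n = 2 each), and the log2 fold change was -1.11 (SE 0.86, adjusted p = 0.574, edgeR). It was -2.94 without knockout 1 and -0.25 without control 2.

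Sostdc1 (ectodin, ENSMUSG00000036169, chr12:36314139-36318452, plus strand), which binds LRP co-receptors and also bone morphogenetic proteins, had 81.7 and 16.0 CPM in the knockouts, against 59.5 and 97.4 CPM in the controls. Knockout 2 was again the lowest library, and knockout 1 lay between the controls. The mean was 48.8 ± 46.5 CPM in the knockouts and 78.4 ± 26.8 CPM in the controls (SD, n = 2 each), with a log2 fold change of -0.68 (SE 0.71, adjusted p = 0.691, edgeR). The value was -2.299 without knockout 1 and 0.06 without knockout 2.

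Between the 2 knockouts, Dkk1, Dkk2 and Sostdc1 were 6.46-fold, 6.12-fold and 5.12-fold higher in knockout 1, and Sfrp1 was 5.30-fold higher in knockout 2. The median ratio of the higher to the lower knockout over all tested genes was 1.41, with a 90th percentile of 4.22, so these 4 members lay beyond that percentile. Of the 11 tested dental epithelium markers, 7 were higher in knockout 1 than in knockout 2 and 4 were lower, and 7 had their lowest value of the 4 libraries in knockout 2. The enamel gene Amelx had 2390 and 79.9 CPM in the knockouts, against 7407 and 2402 CPM in the controls. Enam had 968 and 77.0 CPM in the knockouts, against 1410 and 1493 CPM in the controls. Ambn, the most abundant of the list, lay the other way between the knockouts, with 30950 and 41040 CPM, against 52480 and 18110 CPM in the controls. Odontoblast genes were divided too. The dentin gene Dspp had 23.5 and 0.73 CPM in the knockouts, against 26.2 and 243 CPM in the controls, but the other 5 of the 6 were higher in knockout 2 than in knockout 1, and 4 of them were highest there. All 8 leukocyte markers were lowest in knockout 2. Dkk2 and Sostdc1 were lowest in knockout 2 as well, and Dkk1 was lowest in control 2. Over the whole epithelial list, 7 of 11 tested genes lay lower in both knockouts and none higher, beside 24.8% and 25.8% of all tested genes. The list's median log2 fold change was -1.15. The part of epithelial, odontoblast or leukocyte content in these values was not tested.

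**Figure D3:**
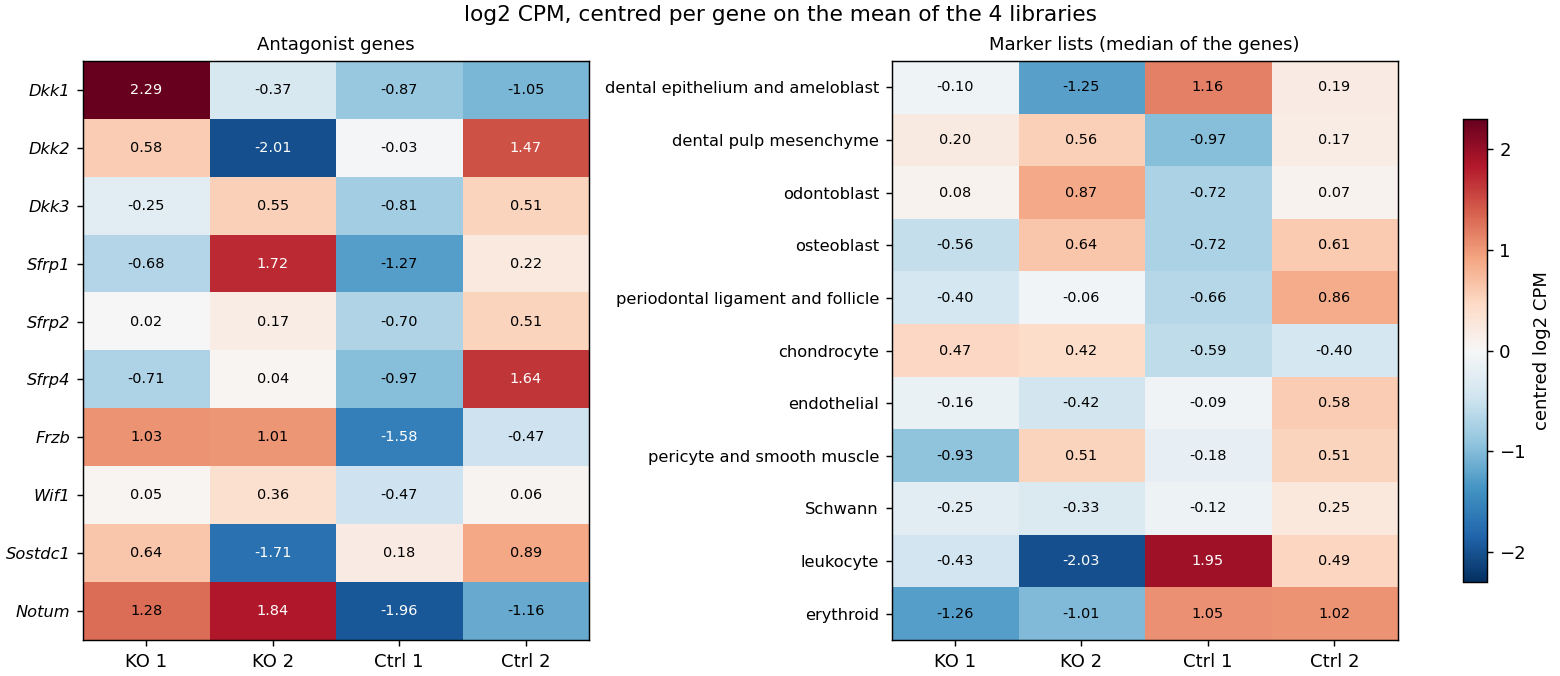
Log2 CPM of each antagonist (left) and median of the same quantity over the genes of each cell type marker list (right), centred per gene on the mean of the 4 libraries; columns are libraries, knockouts first, and red is above and blue below that mean. Dkk2 and Sostdc1 have their lowest value in knockout 2, at -2.01 and -1.71. The leukocyte, epithelial, endothelial and Schwann lists are lowest there too, at -2.03, -1.25, -0.42 and -0.33. Frzb and Notum are above 1 in both knockouts.

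Dkk3 (ENSMUSG00000030772, chr7:112116017-112159057, minus strand) is a divergent family member that does not bind LRP5 and LRP6 as Dkk1 does. It had 297 and 516 CPM in the knockouts, against 202 and 501 CPM in the controls. Each group had 1 high and 1 low library, and the groups overlapped nearly throughout. The mean was 406 ± 155 CPM in the knockouts and 351 ± 211 CPM in the controls (SD, n = 2 each), and the log2 fold change was 0.21 (SE 0.51, adjusted p = 0.889, edgeR). It was -0.33 without control 1 and -0.24 without knockout 2.

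Notum (ENSMUSG00000042988, chr11:120653788-120661175, minus strand), the Wnt-inactivating carboxylesterase, had the lowest mean level per kilobase in both groups and the largest fold difference of the 10. It had 198 and 268 counts in the knockouts, against 14 and 28 counts in the controls, which is 10.1 and 15.0 CPM in the knockouts, against 0.97 and 1.78 CPM in the controls. Both knockouts were several-fold above both controls, and all 4 libraries lay above the level of 3 counts, which was 0.15 to 0.21 CPM. The mean was 12.6 ± 3.44 CPM in the knockouts and 1.37 ± 0.57 CPM in the controls (SD, n = 2 each), a 9.07-fold difference. The log2 fold change was 3.18 (SE 0.66), with an adjusted p of 0.152 and a p-value of rank 235 among the 17128 genes by edgeR's quasi-likelihood test. By DESeq2 the adjusted p was 0.00049, and by limma-voom it was 0.135. The log2 fold change lay between 2.79 and 3.64 with each library left out. Notum shares 708 exon bases with the antisense gene Notumos and 210 with the antisense gene Myadml2os. On either strand, 29.5% of its 50-base words occur in transcripts of other genes, a share in which such antisense overlaps are counted. Counts assigned to Notumos were 2 and 14 in the knockouts, against 0 and 0 in the controls, and those of Myadml2os were 0 and 0 in the knockouts, against 0 and 2 in the controls. Without strand information, reads of these genes and of Notum in the shared bases cannot be told apart.

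**Figure D4:**
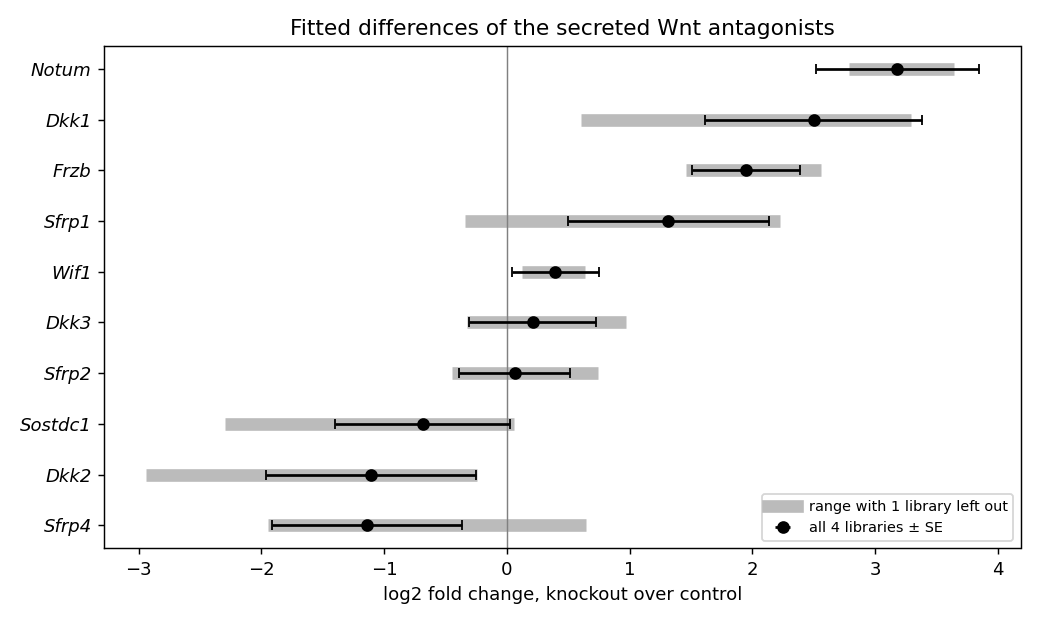
Log2 fold change of each antagonist, knockout over control, from edgeR (horizontal axis, point with a bar of 1 SE), and a grey band over the values with each library left out. Notum, Dkk1 and Frzb are highest at 3.18, 2.50 and 1.95, and the Dkk1 value without knockout 1 lies at 0.60.

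Leukocyte and erythroid markers separated the groups although the sort was negative for CD45 and Ter119. All 8 leukocyte and all 6 erythroid markers lay lower in both knockouts, beside 24.8% of all tested genes. The leukocyte markers summed to 725 and 224 CPM in the knockouts, against 4729 and 1357 CPM in the controls. The erythroid markers summed to 68.1 and 77.2 CPM in the knockouts, against 321 and 310 CPM in the controls. Control 1, the library with the most leukocyte RNA, was the lowest of the 4 for Dkk3, Sfrp1, Sfrp2, Sfrp4, Frzb, Wif1 and Notum. Its part in those values was not tested. Of the 8 pulp mesenchyme genes, 4 lay higher in both knockouts, as Frzb and Notum did, and 1 lower. Over all tested genes these shares were 25.8% and 24.8%. Among the 4 was Msx1, a mesenchymal transcription factor, with 2907 and 2521 CPM in the knockouts, against 723 and 844 CPM in the controls. The 1 lower was Thy1, with 7.32 and 3.69 CPM in the knockouts, against 13.8 and 28.0 CPM in the controls. Lhx8, Prrx1 and Pdgfra overlapped between the groups. The part of the mesenchyme in the Frzb and Notum levels was not tested. Of the remaining lists, odontoblast genes summed to 222 and 289 CPM in the knockouts, against 111 and 389 CPM in the controls. That list includes Sp7, the gene that drives the Cre, with 130.5 and 145.4 CPM in the knockouts, against 43.9 and 60.5 CPM in the controls. Osteoblast genes summed to 1256 and 2474 CPM in the knockouts, against 1421 and 3221 CPM in the controls. Endothelial genes summed to 781 and 751 CPM in the knockouts, against 910 and 1352 CPM in the controls, and Schwann cell genes to 58.8 and 45.04 CPM, against 153 and 242 CPM in the controls, with Foxd3 at 0 in all libraries but control 2.

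Of 22 receptors, co-receptors and glypicans, all tested, 10 lay higher in both knockouts and 0 lower, beside 25.8% and 24.8% of all tested genes, and the median log2 fold change was 0.52. That median lay between 0.27 without control 1 and 0.95 without control 2. At an unadjusted p under 0.05, 6 were higher and none lower, beside 7.32% and 9.89% of all tested genes. None passed edgeR's adjusted threshold, while DESeq2 called 3 higher, where it called 2.72% of all genes higher. Lrp5, a co-receptor that DKK1 binds, had 8.24 and 20.9 CPM in the knockouts, against 2.71 and 7.17 CPM in the controls (log2 fold change 1.56, SE 0.72, adjusted p = 0.330). Lrp6 had 24.9 and 27.1 CPM in the knockouts, against 11.2 and 24.3 CPM in the controls (0.55, SE 0.49, adjusted p = 0.634). Lrp4, which presents sclerostin in bone, had 17.4 and 29.1 CPM in the knockouts, against 2.98 and 10.5 CPM in the controls (1.78, SE 0.68, adjusted p = 0.2498). The 3 co-receptors were thus lowest in control 1. Both knockouts lay above both controls for Lrp4 and Lrp5. For Lrp6 they did so by a small margin only, with knockout 1 and control 2 nearly level. The Lrp6 log2 fold change was 0.063 without control 1.

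Kremen1, which takes up LRP6 together with DKK1, had 35.5 and 103 CPM in the knockouts, against 22.0 and 73.9 CPM in the controls, and the groups overlapped. Its relative Kremen2 had at most 13 counts in any library. The receptors with the smallest p-values were Fzd9, Ror2, Gpc6 and Fzd7. The Frizzled receptor Fzd9 had 6.86 and 27.3 CPM in the knockouts, against 1.53 and 1.59 CPM in the controls (log2 fold change 3.45, adjusted p = 0.163, edgeR). Ror2, a receptor of WNT5A, had 20.98 and 65.01 CPM in the knockouts, against 9.72 and 8.82 CPM in the controls (2.21, adjusted p = 0.174). Both were higher in knockout 2 than in knockout 1. Fzd9 passed the adjusted threshold with DESeq2 (adjusted p = 0.00034), in edgeR without the filter (0.00012) and without knockout 1 (0.030). Ror2 passed with DESeq2 and in unfiltered edgeR too (adjusted p = 0.0061 and 0.00091 in that order). The Ror2 log2 fold change was 2.808 without knockout 1 and 1.177 without knockout 2. The glypican Gpc6 had 129 and 163 CPM in the knockouts, against 42.5 and 69.9 CPM in the controls (1.38, adjusted p = 0.176), and its adjusted p was 0.035 by DESeq2 and 0.029 in unfiltered edgeR. Fzd7 had 28.7 and 39.3 CPM in the knockouts, against 15.1 and 14.6 CPM in the controls (1.20, adjusted p = 0.212).

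Further inhibitors outside the 10 did not lean one way. Of 13 such genes, 12 were tested, and 3 lay higher and 4 lower in both knockouts, beside 25.8% and 24.8% of all tested genes. The median log2 fold change was -0.15. Tpbg is a membrane protein that inhibits Wnt signalling in zebrafish. It had 47.9 and 72.8 CPM in the knockouts, against 15.4 and 17.7 CPM in the controls (1.86, SE 0.40). The adjusted p of Tpbg was 0.159 in edgeR, 0.0033 in DESeq2 and 0.105 in limma-voom. Znrf3, a ubiquitin ligase that clears Frizzled from the membrane, had 20.9 and 19.4 CPM in the knockouts, against 9.44 and 8.88 CPM in the controls (1.13, SE 0.43, adjusted p = 0.249). On the other side, Dkkl1 had 1 and 3 counts in the knockouts, against 34 and 19 counts in the controls (-3.95, SE 1.32, adjusted p = 0.212). Sfrp5, a further Wnt-binding SFRP, had 2.87 and 1.57 CPM in the knockouts, against 4.44 and 6.22 CPM in the controls (-1.26, adjusted p = 0.460). Sost, the gene of sclerostin, was near the detection limit, with 19 and 0 counts in the knockouts, against 0 and 16 counts in the controls.

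**Figure D5:**
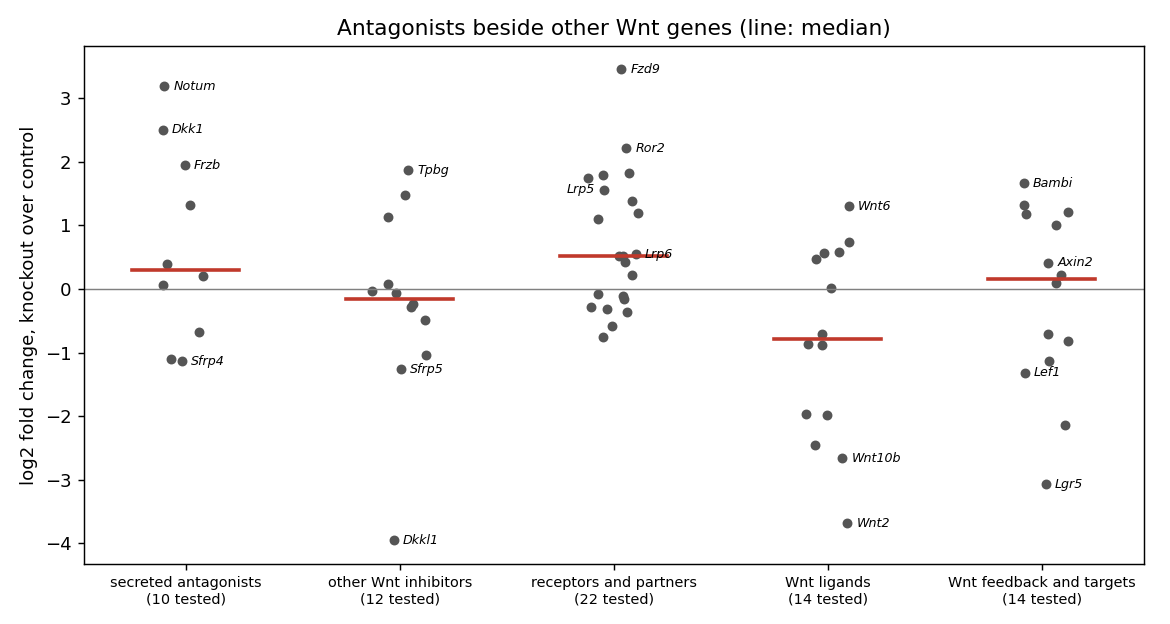
Log2 fold change, knockout over control, from edgeR (vertical axis) for each tested gene of 5 lists, the 10 antagonists, other Wnt inhibitors, receptors and partners, Wnt ligands, and feedback and target genes, with a point for each gene and a red line at each list's median. The medians are 0.30, -0.15, 0.52, -0.78 and 0.15 in that order, left to right, and the ligand median turned positive under 3 alternatives.

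Of 19 Wnt ligands, 14 were tested, with 4 higher and 4 lower in both knockouts, beside 25.8% and 24.8% of all tested genes. Their median log2 fold change was -0.78. The sign of that median was not stable, since it was 0.50 with 1 CPM required in all libraries, 0.12 with limma-voom and 0.31 without control 2. Wnt2 had 0.72 and 0.50 CPM in the knockouts, against 4.93 and 10.9 CPM in the controls (-3.68, SE 0.84). The adjusted p of Wnt2 was 0.163 in edgeR, 0.00085 in DESeq2 and 0.178 in limma-voom. Wnt10b, a ligand that promotes bone formation, had 0.51 and 0.78 CPM in the knockouts, against 5.27 and 2.98 CPM in the controls (-2.66, adjusted p = 0.221). Wnt6 lay the other way, with 17.7 and 32.0 CPM in the knockouts, against 11.3 and 8.82 CPM in the controls (1.302, adjusted p = 0.242). Wnt7a had at most 26 counts in any library, with 10 and 0 counts in the knockouts, against 18 and 26 counts in the controls.

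Among 14 feedback and target genes of the pathway, 5 lay higher and 4 lower in both knockouts, beside 25.8% and 24.8% of all tested genes. Their median log2 fold change was 0.15. At an unadjusted edgeR p under 0.05, 3 were higher and 3 lower, beside 7.32% and 9.89% of all tested genes. Axin2, a widely used readout of Wnt/beta-catenin signalling, had 9.82 and 16.5 CPM in the knockouts, against 7.91 and 11.9 CPM in the controls, and the groups overlapped (0.41, SE 0.52, adjusted p = 0.759, edgeR). Lef1 had 99.2 and 44.6 CPM in the knockouts, against 270 and 88.2 CPM in the controls (-1.32, adjusted p = 0.338). Its relative Tcf7 had 30.3 and 36.5 CPM in the knockouts, against 15.3 and 11.5 CPM in the controls (1.31, adjusted p = 0.195). Lgr5, an R-spondin receptor and stem cell marker, had 14.9 and 5.54 CPM in the knockouts, against 46.6 and 125 CPM in the controls (-3.07, SE 0.68, adjusted p = 0.161). Lgr5 passed the threshold with DESeq2 (adjusted p = 3.4e-05). It also passed in edgeR without the filter on low counts (2.7e-08) and with 1 CPM required in all libraries (0.049). The Lgr5 log2 fold change was -3.956 without knockout 1 and -2.526 without knockout 2, each with 1 knockout library left. Bambi is a pseudoreceptor that dampens TGF-beta and BMP signals. It had 1105 and 1285 CPM in the knockouts, against 446 and 309 CPM in the controls (1.66, SE 0.36). The adjusted p of Bambi was 0.160 in edgeR, 0.0029 in DESeq2 and 0.081 in limma-voom. The adhesion receptor Cd44 had 47.5 and 60.4 CPM in the knockouts, against 103 and 134 CPM in the controls (-1.14, adjusted p = 0.191). Readouts of the pathway thus stood on both sides, with Axin2 not separated.

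Patterns over the 4 libraries were compared by the root mean square difference of centred log2 CPM, where 0 means the same relative levels. Dkk3 and Sfrp2 were nearest to each other, at 0.24. Dkk2 and Sostdc1 were the next such pair at 0.34, and Frzb and Notum followed at 0.58. The nearest member to Wif1 was Sfrp2 at 0.27, while Sfrp1 and Sfrp4 were nearest to Dkk3 at 0.68 and 0.67. Dkk1 had no close partner, its nearest being Frzb at 1.04. Of all tested genes, Mterf2, Letmd1 and Zfp943 came nearest to Wif1, which had the highest mean over the 4 libraries per kilobase of exon (540, beside 538 for Sfrp2), at 0.0083, 0.028 and 0.032. Letmd1 had 57.9 and 74.1 CPM in the knockouts, against 40.6 and 61.3 CPM in the controls. With 4 libraries and 17128 genes these distances only describe the profiles.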

How the data were processed

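RNA from sorted incisor cells was reverse transcribed with oligo-dT and template-switching primers, amplified by 14 PCR cycles, and 50 ng of cDNA was made into libraries with a transposase kit, per the labels' protocols. The deposited values are raw read counts per Ensembl gene, not normalized. Reads were aligned to GRCm38 according to the submitters' processing notes, which name featureCounts 2.0.1, Bowtie2 2.3.5.1 and Trim Galore 0.6.6. Not given in the sources used here are the annotation release, the strand setting and the treatment of multi-mapping reads. Bowtie2 is not a splice-aware aligner, so reads across exon junctions may be lost.

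Gene symbols, coordinates and exon lengths came from GENCODE M21, which held 55227 of the 55487 IDs. Low counts were filtered with edgeR's filterByExpr, CPM were scaled by TMM, and groups were compared over all genes with edgeR 4.0.16's quasi-likelihood test and Benjamini-Hochberg adjustment (limma 3.58.1, R 4.3.3). DESeq2 1.42.0, limma-voom, other scaling factors, no filter, a minimum of 1 CPM in all 4 libraries, the replicate block and each library left out were the alternatives. The scripts were tested on simulated data. The common biological coefficient of variation was 49.2%. An exact two-sided permutation test of 2 against 2 libraries cannot go below 0.333, so none was used. Library totals were 15154246 to 19142757 counts. PCR reads without molecular identifiers are not independent molecules, so the level of 3 counts given for Notum covers counting error only. No 50-base word was shared between members.

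Every member is named. Of the lists of other Wnt inhibitors, receptors and partners, feedback and target genes and ligands, the 4 genes with the smallest p are named, besides Axin2, Lef1, Lgr5, Lrp4, Lrp5, Lrp6, Kremen1, Kremen2, Sfrp5 and Sost. The genes named from the marker lists, Foxd3 and the library patterns described were chosen after their values were seen. The members and lists were chosen with earlier results of these data known.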

Additional observations from a re-analysis of the deposited data

How the results depend on the processing

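With 2 libraries a group and a variation of 49.2% between them, the number of calls depended on the test. Genes called higher and lower were 449 and 1005 with no filter, 55 and 138 with 1 CPM required in all libraries, 472 and 989 with DESeq2, and 0 to 55 and 0 to 230 with each library left out, the highest without knockout 1. The replicate number does not pair libraries by the labels, and same-numbered deviations correlated at 0.145 across genes. With the replicate block 59 genes were called higher and 185 lower, none of them antagonists. Antagonists called higher were 3 with no filter, 3 with DESeq2 and 0 with limma-voom. The fit with no filter took its variances from the trend over genes and not from each gene's own replicates. The stricter filter removed Notum. Antagonists not overlapping numbered 3 to 8 higher, the most without control 2, where 42.2% of all genes did so, and 0 to 4 lower, the most without control 1, where 38.7% did. Sign changes with a library left out spanned -0.33 to 0.97 for Dkk3, -0.34 to 2.23 for Sfrp1, -0.45 to 0.74 for Sfrp2, -1.95 to 0.65 for Sfrp4, -2.299 to 0.058 for Sostdc1, -6.06 to 6.06 for Sost, -0.44 to 1.62 for Kremen1, -6.04 to 0.39 for Kremen2 and -0.011 to 0.73 for Axin2. Sfrp2 was also -0.013 under the stricter filter. List medians ranged from -0.85 to 0.80 for other inhibitors, 0.27 to 0.95 for receptors, -0.32 to 0.36 for feedback genes and -0.86 to 0.31 for ligands, and the ligand median was 0.50 under the stricter filter, 0.12 with voom and -0.058 with the block. Calls were 1 higher inhibitor, 1 higher feedback gene and 1 lower ligand both with no filter and with DESeq2. Receptors called higher were 5 with no filter and 3 with DESeq2. Feedback genes called lower were 2 with no filter, 1 under the stricter filter and 1 with DESeq2. Of 109 alternative values of the antagonists, 95 kept direction and side of the threshold, 6 passed it and 8 changed sign. The causes were not tested.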
